A study of Mus musculus with 19 samples.

Results

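The mitochondrial ribosomal protein genes, all genes with an Mrpl or Mrps symbol followed by a number, were compared between HSALR and wild-type muscle. They were chosen by symbol alone, among probe sets that the array annotation pairs with 1 gene symbol, and each gene was read through its brightest probe set over all samples. This gave 76 of the 18193 genes on the array. Of these, 49 encode proteins of the large ribosomal subunit and 26 proteins of the small subunit. The remaining gene, Mrps36, carries a family symbol, but its protein is now placed in the 2-oxoglutarate dehydrogenase complex. Mrpl30 and Mrpl53 share their probe sets with other symbols and were not analysed here.

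The tissue was the extensor digitorum longus (EDL), a fast hind-leg muscle, of FVB mice aged 19 weeks. The 9 wild-type samples carried no transgene according to the labels, and the 10 HSALR samples came from transgenic line 20 b, in which a human skeletal actin gene with a long CTG repeat is expressed in muscle. HSALR mice are used as a model of myotonic dystrophy, and 1 line cannot separate the repeat from the insertion site of the transgene. Total RNA was hybridised to 1 Affymetrix array per sample, and the number of arrays limits the precision. Whether each sample is a different animal is not stated in the labels. The p-values therefore speak only of the spread among these arrays, part or all of which may be technical. In whole muscle, fewer cells of a type and less RNA per cell cannot be told apart.

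Mitochondria build the core subunits of their respiratory chain on their own ribosomes. The RNA of these ribosomes comes from mitochondrial DNA, whereas all their proteins are encoded in the nucleus, made in the cytosol and imported. Some of the proteins have counterparts in bacterial ribosomes, and others are specific to mitochondria. The promoters of nuclear genes for mitochondrial proteins often hold sites for NRF1 and for the ETS factor GABP, also called NRF2.

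Promoter windows from 250 bases before to 50 bases after the start were matched by Entrez gene identifier in RefSeq (GRCm38.p6) for 67 of the 76 genes. An NRF1 core (GCGCA, then any base, then GCGC, on both strands) was found in 12 of the 67 (17.9%), against 5.19% of 27025 genes with a window of the same length. CCGGAAG, an ETS core, was found on either strand in 25 (37.3%, against 9.93%). AAGATGG, a YY1 core, was found in 13 (19.4%, against 7.28%), and TATAAA in 5 (7.46%, against 15.7%), each on either strand. NRF1 or ETS letters were found in 33 of the 67 genes (49.3%, against 14.0%), and 4 genes held both. A gene with several starts counted if any of its windows matched. A match describes the letters only, and the search did not mask overlaps between motifs. Stretches of 100 bases that end at the base before the start are given for 4 members that hold such letters, followed by the 3 members that fell after quantile normalization. Capitals mark NRF1 letters in Mrpl12 and Mrpl44 and ETS letters in Mrpl3 and Mrps22, and the letters in Mrpl12 match on the opposite strand. No NRF1 or ETS letters were found in the windows of Mrps24, Mrps15 and Mrpl50, which says nothing about either factor.
Mrpl12, chr11:120484537-120484636, + strand: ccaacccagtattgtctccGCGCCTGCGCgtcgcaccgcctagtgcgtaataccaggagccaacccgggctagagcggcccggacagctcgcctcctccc
Mrpl44, chr1:79775918-79776017, + strand: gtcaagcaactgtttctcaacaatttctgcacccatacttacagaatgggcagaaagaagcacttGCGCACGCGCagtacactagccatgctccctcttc
Mrpl3, chr9:105053168-105053267, + strand: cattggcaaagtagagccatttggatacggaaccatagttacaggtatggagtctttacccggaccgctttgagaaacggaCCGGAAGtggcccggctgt
Mrps22, chr9:98601680-98601779, - strand: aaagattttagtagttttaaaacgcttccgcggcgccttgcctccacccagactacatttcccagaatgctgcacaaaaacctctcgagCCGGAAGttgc
Mrps24, chr11:5707702-5707801, - strand: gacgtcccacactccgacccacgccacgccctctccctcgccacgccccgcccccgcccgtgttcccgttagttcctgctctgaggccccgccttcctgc
Mrps15, chr4:126046828-126046927, + strand: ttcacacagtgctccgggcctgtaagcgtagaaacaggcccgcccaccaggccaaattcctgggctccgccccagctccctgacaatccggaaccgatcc
Mrpl50, chr4:49521084-49521183, - strand: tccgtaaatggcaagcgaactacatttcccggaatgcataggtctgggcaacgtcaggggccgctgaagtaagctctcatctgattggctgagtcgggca

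Some libraries stood apart before any comparison. Each array's median over tested probe sets lay between 7.56 and 7.95 (log2) in wild type and between 7.30 and 7.96 in HSALR, so the arrays were not at 1 common level. Results are therefore given both as deposited and after quantile normalization, which brings all arrays to 1 distribution. HSALR replicates 9 and 10 resembled each other most (Spearman 0.978 over probe sets), and the best match of every other sample reached 0.953 to 0.969. The family's calls, and those of the other lists, are also given without them.

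With the signals as deposited, the family differed little between the groups. All 76 genes passed the filter on dim probe sets, and limma called 0 of them at a false discovery rate of 0.05, against 5.42% of the 11533 genes tested (3.11% higher and 2.31% lower). Without adjustment, limma's p lay under 0.05 for 6 of 76 members, against 21.3% of all genes. Of the 6, 2 were higher and 4 lower, against 13.8% and 7.47% of all genes. Log2 folds, HSALR over wild type on the scale of log2(signal + 16), ran from -0.31 in Mrps24 to 0.25 in Mrps34. They lay above 0 in 38 members and below 0 in 38, whereas 39.6% of all genes lay below 0. Their median was 0.0006, against 0.05 over all genes. The 95% interval of the fold stayed within a 1.5-fold change for 76 of 76 members, against 79.0% of all genes. In 0 of 76 members did the groups not overlap, against 0.728% of all genes.

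After quantile normalization, limma called 3 members lower (Mrps24, Mrps15 and Mrpl50) and 0 higher, 3 of 76 in all, against 15.5% of all genes. Lower calls alone made up 8.51% of all genes and higher calls 6.96%. At an unadjusted p under 0.05, 12 members were lower, against 16% of all genes, and 1 was higher, against 14.7%. In either direction this was 13 of 76, against 30.7% of all genes. The median log2 fold of the members was -0.06, and that of all genes -0.007. The folds of 53 members lay below 0, against 51.4% of all genes, and the intervals of 76 of 76 again stayed within a 1.5-fold change, against 83.2% of all genes. The groups did not overlap in 0 of 76 members, against 2.01% of all genes.

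**Figure D1:**
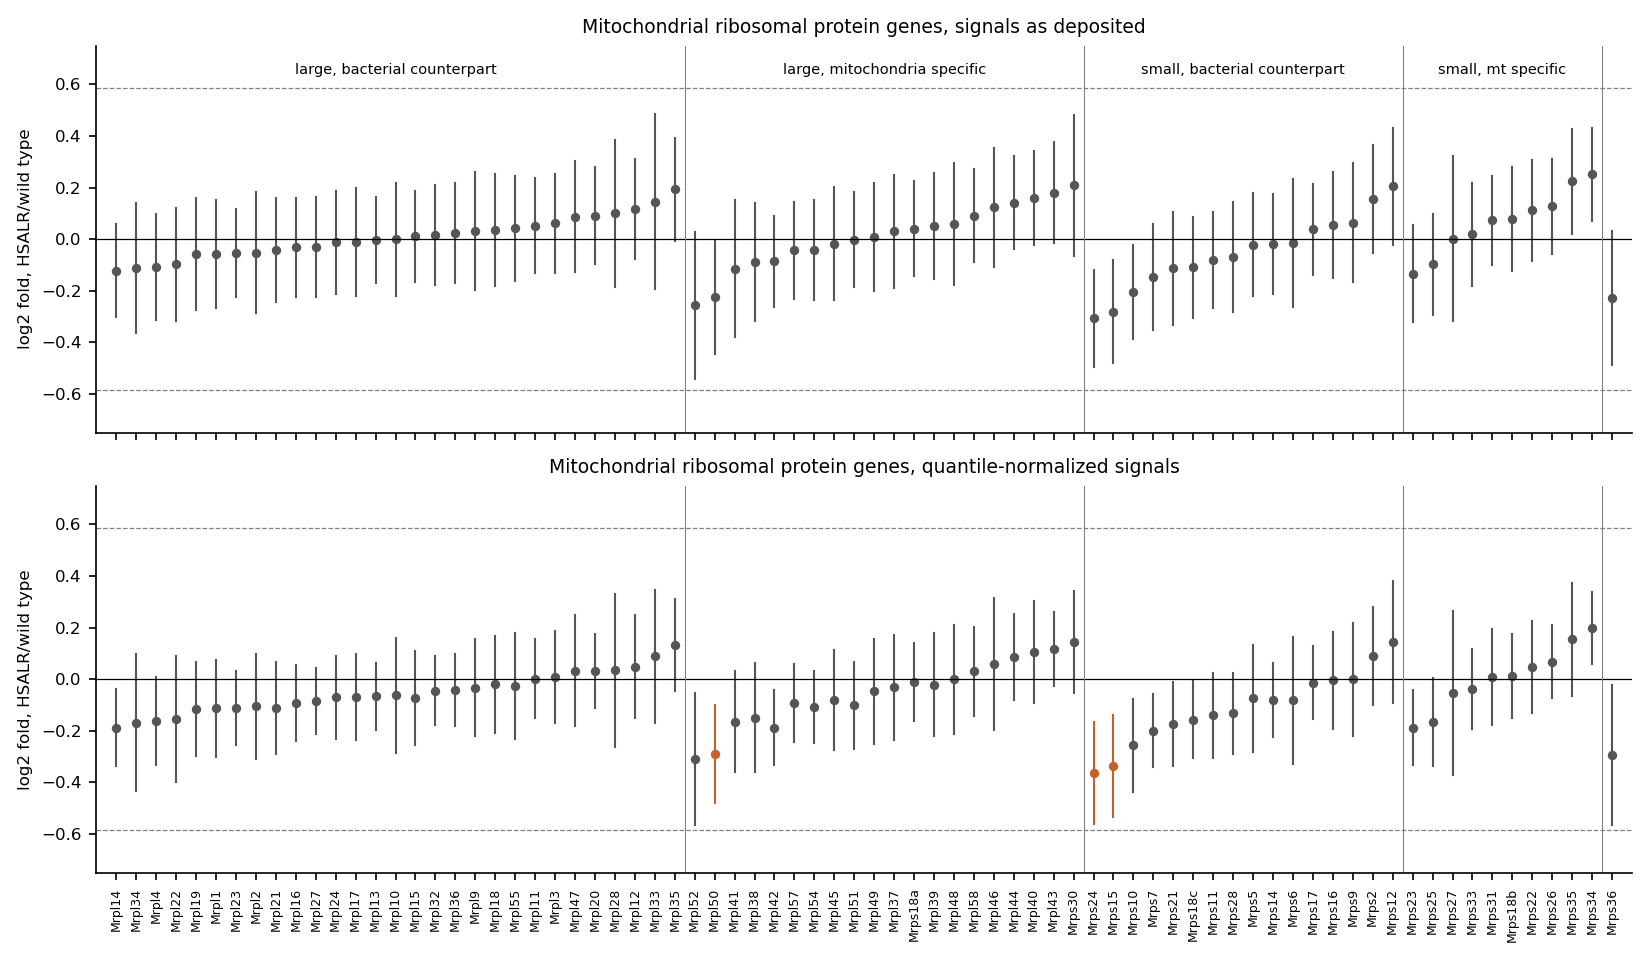
Log2 fold (HSALR over wild type, y axis) of each of the 76 genes with its 95% interval, ordered by subunit and by whether the protein has a bacterial counterpart, as deposited (top) and after quantile normalization (bottom). Dashed lines mark a 1.5-fold change, orange marks genes that limma called, which are Mrps24, Mrps15 and Mrpl50 in the bottom panel only, and the last gene is Mrps36.

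By structural class, the median log2 folds as deposited ran from -0.05 for small-subunit genes with a bacterial counterpart to 0.07 for small-subunit genes specific to mitochondria, and limma called none in any of the 4 classes. Of the 29 large-subunit genes with a bacterial counterpart, 14 had folds above 0, and of the 20 large-subunit genes specific to mitochondria, 11 did. In the small subunit, 5 of 16 genes with a bacterial counterpart and 8 of 10 specific to mitochondria had folds above 0. These are counts of folds and not of calls, and the difference between the classes was not tested.

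Mrps24 encodes a small-subunit protein at the entry of the mRNA channel. Its signal was 1400, 1710 and 2020 (lowest, median and highest) in wild type and 1140, 1330 and 1700 in HSALR. Of the 10 HSALR samples, 6 lay below every wild-type sample and 0 above, and the others overlapped with wild type. The log2 fold was -0.31 ± 0.09 (SE, n = 10 against 9, limma adjusted p = 0.0512) as deposited and -0.36 ± 0.09 (limma adjusted p = 0.014) after quantile normalization. A second probe set of the gene had signals of 1100 to 1320 in wild type and 948 to 1470 in HSALR. Its log2 fold was -0.03 ± 0.09 as deposited (limma adjusted p = 0.881) and -0.08 ± 0.09 after quantile normalization (limma adjusted p = 0.57). Mrps24 thus passed after quantile normalization in 1 of 2 probe sets. With the mean of each gene's probe sets, dim ones included, in place of the brightest, limma called none of Mrps24, Mrps15 and Mrpl50 on the quantile-normalized values (adjusted p = 0.0789, 0.324 and 0.15). As deposited, the brighter probe set also passed when wild-type replicate 2 or 5 or HSALR replicate 5, 6, 7 or 8 was left out (limma adjusted p = 0.0205 to 0.0499).

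Mrps15, a small-subunit protein that binds the ribosomal RNA, had signals of 1040, 1210 and 1480 in wild type and 845, 1050 and 1250 in HSALR. In 5 of 10 HSALR samples it lay below every wild-type sample, and the groups overlapped. It fell after quantile normalization by 0.34 on the log2 scale (SE 0.10, limma adjusted p = 0.022), while as deposited its log2 fold was -0.28 (limma adjusted p = 0.0918). Its other tested probe set had a log2 fold of -0.16 ± 0.11 as deposited (limma adjusted p = 0.452) and -0.22 ± 0.09 after quantile normalization (limma adjusted p = 0.103).

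Mrpl50 is a large-subunit protein specific to mitochondria. Its signals were 521, 585 and 777 in wild type and 419, 491 and 700 in HSALR. HSALR replicates 2 and 8, at 700 and 697, lay within the wild-type range, and 7 of 10 HSALR samples lay below every wild-type sample. The log2 fold was -0.22 ± 0.11 as deposited (limma adjusted p = 0.231) and -0.29 ± 0.09 after quantile normalization (limma adjusted p = 0.0364). Its second probe set, with signals of 289 to 494 in wild type and 274 to 502 in HSALR, had -0.02 ± 0.12 (limma adjusted p = 0.942) and, after quantile normalization, -0.08 ± 0.10 (limma adjusted p = 0.655), so Mrpl50 also passed in 1 of 2 probe sets. The quantile-normalized calls of Mrps15 and Mrpl50 were lost without HSALR replicates 9 and 10 (limma adjusted p = 0.056 and 0.103). That of Mrpl50 was also lost when wild-type replicate 1, 2, 3, 5, 7 or 9 or HSALR replicate 3, 9 or 10 alone was left out.

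Mrps34, a small-subunit protein specific to mitochondria, had the highest fold of the family. Its signals were 1240, 1410 and 1690 in wild type and 1410, 1700 and 2070 in HSALR, and 5 of 10 HSALR samples exceeded the whole wild-type range. The log2 fold was 0.25 ± 0.09 (limma adjusted p = 0.0951) as deposited and 0.20 ± 0.07 (limma adjusted p = 0.0527) after quantile normalization. It passed as deposited without HSALR replicate 5 (limma adjusted p = 0.0499) and after quantile normalization without wild-type replicate 6, HSALR replicate 9 or HSALR replicate 10 (0.041, 0.0305 and 0.0299). Mrps35, also specific to mitochondria, had signals of 492, 569 and 670 in wild type and 530, 664 and 830 in HSALR, with 4 HSALR samples above the wild-type range. Its log2 fold was 0.22 ± 0.10 as deposited (limma adjusted p = 0.193) and 0.15 ± 0.11 after quantile normalization (limma adjusted p = 0.346).

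Mrps12 encodes a protein of the decoding centre. Its signals were 694, 788 and 876 in wild type and 674, 880 and 1290 in HSALR, so that the HSALR samples reached both below and above the wild-type range. As deposited, its log2 fold came to 0.20 ± 0.11 (limma adjusted p = 0.294), and after quantile normalization to 0.14 ± 0.11 (limma adjusted p = 0.424). Mrps30, named as a small-subunit protein but located in the large subunit, ran from 316 to 660 in wild type and from 389 to 689 in HSALR, with a log2 fold of 0.21 ± 0.13 (limma adjusted p = 0.387).

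**Figure D2:**
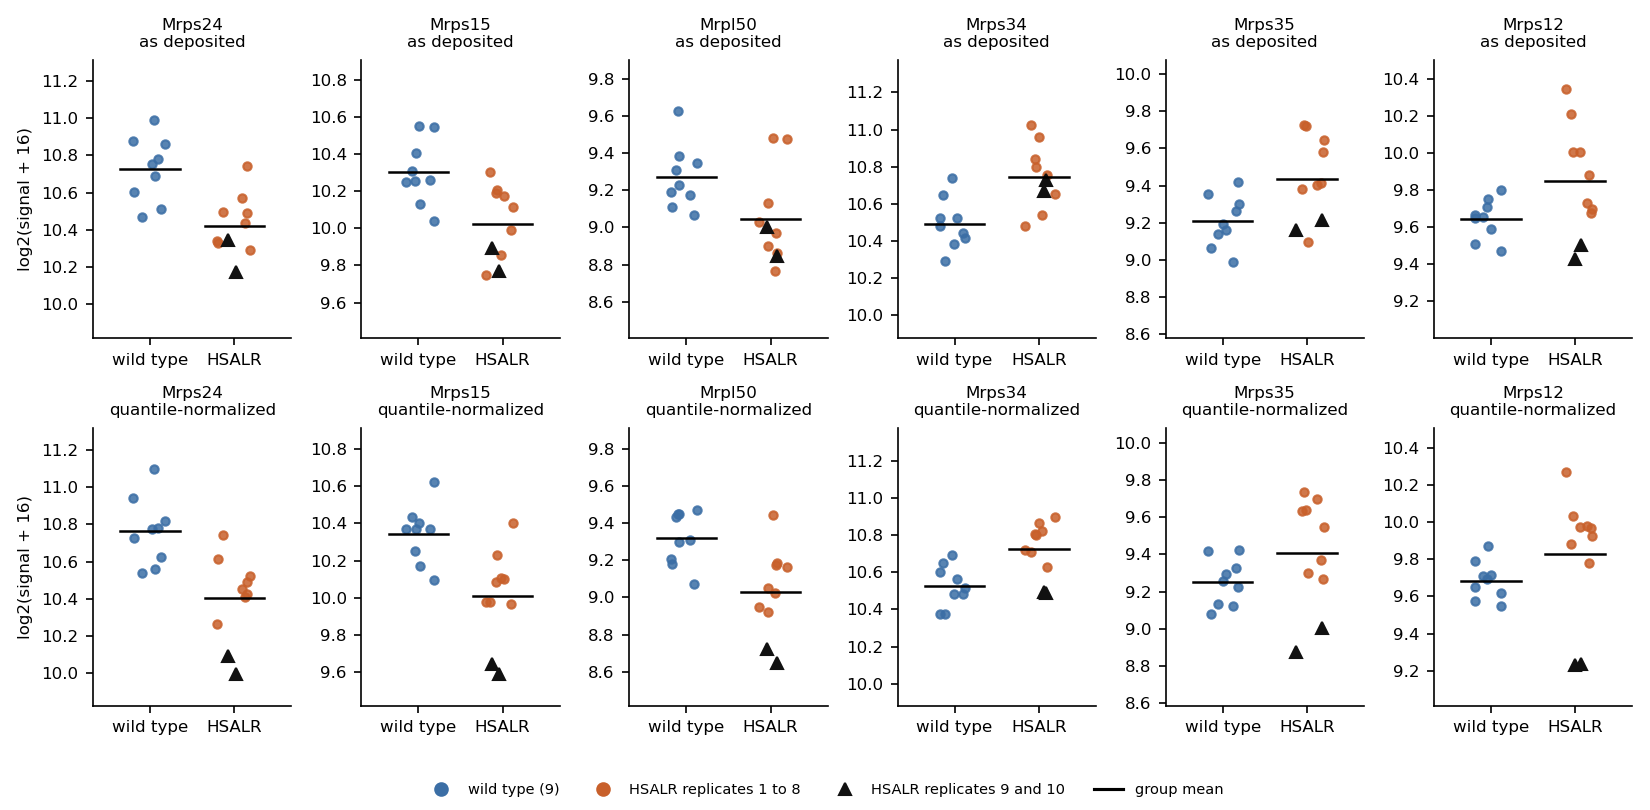
Log2(signal + 16) of 6 members in each wild-type and HSALR sample, as deposited (top) and after quantile normalization (bottom), with bars at the group means; y axes differ in level but have the same length. The groups overlap in all 6 genes as deposited, and HSALR replicates 9 and 10 (triangles) are the lowest 2 samples of Mrps24, Mrps15, Mrpl50, Mrps35 and Mrps12 after quantile normalization.

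The members named for other reasons had folds nearer 0. The brightest probe sets of the family were those of Mrpl51, Mrpl42, Mrpl15 and Mrpl39, large-subunit proteins, with log2 folds of -0.002, -0.09, 0.01 and 0.05 as deposited. The dimmest were those of Mrps27, a pentatricopeptide repeat protein, at 0.002 and Mrpl49 at 0.01. Mrps27 had the widest spread in HSALR, with signals of 88.5 to 222, against 143 to 205 in wild type.

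Mrpl12, a protein of the stalk that recruits translation factors, had signals of 1480, 1630 and 1830 in wild type and 1460, 1810 and 2370 in HSALR, with a log2 fold of 0.12 ± 0.09. Mrpl44, which has a ribonuclease III fold, had a log2 fold of 0.14 ± 0.09, and Mrps22, a small-subunit protein specific to mitochondria, of 0.11 ± 0.09. Mrpl3 and Mrps16, both with bacterial counterparts, had log2 folds of 0.06 and 0.05, and Mrps18a, found in the large subunit in spite of its symbol, of 0.04. None of these passed in limma as deposited. The log2 fold of Mrps36 came to -0.23 ± 0.12 (limma adjusted p = 0.306), and its 3 lowest HSALR signals, 1020, 1030 and 1090 in replicates 9, 1 and 10, lay below the lowest wild-type signal of 1570.

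For some genes the log2 folds of the probe sets lay on both sides of 0, and the test of such differences is given below. There were 42 members with more than 1 probe set, and 32 had at least 2 that could be tested. Mrpl41, Mrpl35, Mrpl48 and the further probe sets of Mrpl52, Mrpl51 and Mrpl44 were chosen for description after their values were seen. A second Mrpl41 probe set had signals of 400, 439 and 499 in wild type and 506, 576 and 737 in HSALR, and the groups did not overlap, HSALR being higher. It rose by 0.38 ± 0.08 on the log2 scale (limma adjusted p = 0.0061), the 1 call among 56 other tested probe sets of the family, against 5.06% of all probe sets. The brighter Mrpl41 probe set, at 1160 to 1340 in wild type and 710 to 1620 in HSALR, had a log2 fold of -0.11 ± 0.13.

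The brightest Mrpl52 probe set had a log2 fold of -0.26 ± 0.14, and 2 others had 0.25 ± 0.11 and 0.25 ± 0.11. In Mrpl35 the brightest probe set had 0.19 ± 0.10, and the 2 others had -0.25 ± 0.12 and -0.17 ± 0.11. The dimmest tested probe set of Mrpl51, with signals of 40.2 to 110 in wild type and 31.4 to 75.9 in HSALR, had -0.36 ± 0.14 as deposited and fell by 0.41 after quantile normalization (limma adjusted p = 0.0169). On that scale limma called 2 of the 56 other tested probe sets of the family, against 14.8% of all probe sets.

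Limma's diffSplice, which tests whether the probe sets of 1 gene differ in fold, called 0 of 32 members as deposited, against 1.90% of 4782 genes, with the smallest adjusted p in Mrpl41 (0.0721). After quantile normalization it called Mrpl41 (adjusted p = 0.00928) and Mrpl52 (adjusted p = 0.0113), 2 of 32, against 7.56% of genes. Without HSALR replicates 9 and 10 it called 6 on the quantile-normalized values, namely Mrpl41, Mrpl48, Mrpl51, Mrpl35, Mrpl52 and Mrpl44, 6 of 32, against 6.72% of genes. With all samples Mrpl35 was not called (diffSplice adjusted p = 0.161 as deposited and 0.104 after quantile normalization). The array annotation does not say which transcripts each probe set detects.

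**Figure D3:**
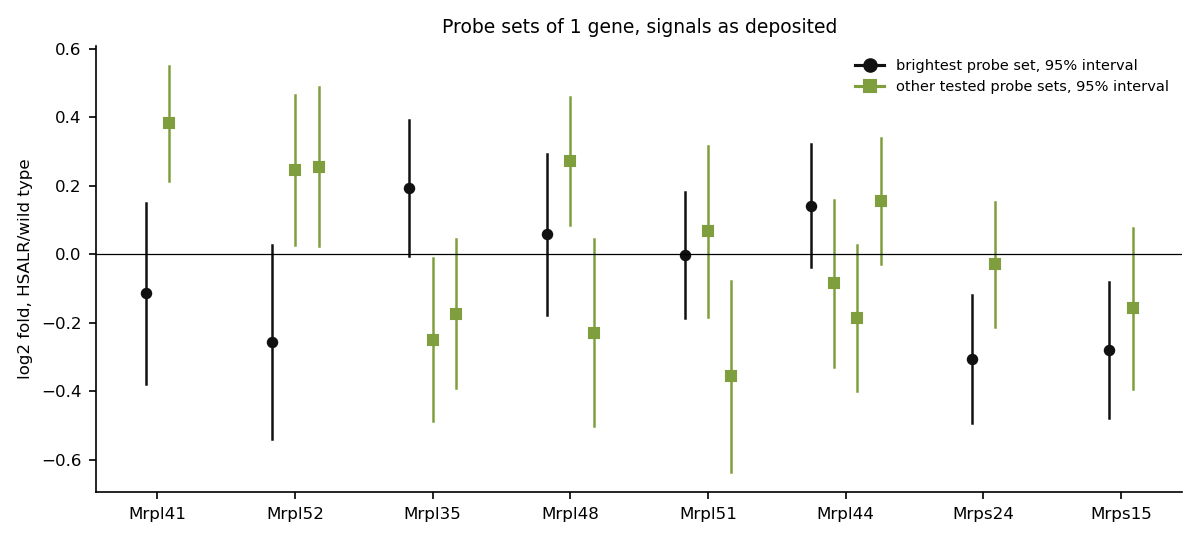
Log2 fold (HSALR over wild type) with 95% interval of each tested probe set of 8 members, with signals as deposited. The second Mrpl41 probe set lies at 0.38 and the brightest one at -0.11, and the probe sets of Mrpl52 and Mrpl35 lie on both sides of 0.

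Sample by sample, the mean log2 signal of the 76 genes showed which arrays were high or low. As deposited, it lay between -0.07 and 0.16 of the wild-type mean in wild type, and between -0.29 (replicate 1) and 0.35 (replicate 8) in HSALR. HSALR replicate 1 was the lowest of all 19 samples for 36 of the 76 genes, against 15.1% of all genes. The members' SD, as a median over genes, was 0.12 in wild type and 0.23 in HSALR, and over all genes 0.20 and 0.29.

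After quantile normalization the order changed. HSALR replicates 9 and 10 lay at -0.39 and -0.38, wild type between -0.05 and 0.07, and the other 8 HSALR samples between -0.11 and 0.16. Replicate 9 was the lowest of 19 samples for 37 members and replicate 10 for 27, together 64 of 76, against 25.9% of all genes. As deposited this was 15 of 76, against 3.93%. Median centring of the arrays gave 37, against 13.5%. In both replicates at once, 62 members lay below every wild-type sample after quantile normalization, against 24.9% of all genes. HSALR replicate 5 was the highest sample for 29 members, against 7.79% of all genes.

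**Figure D4:**
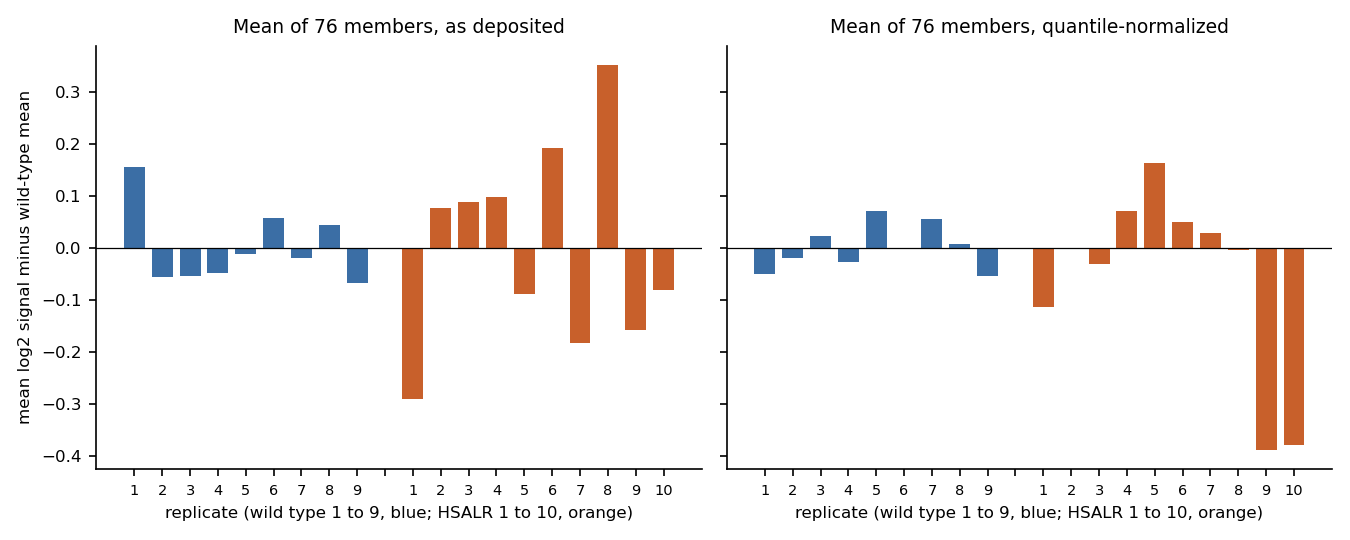
Mean log2(signal + 16) of the 76 genes in each sample, minus the wild-type mean, as deposited (left) and after quantile normalization (right), with 1 bar per replicate. HSALR replicates 1 and 8 are the extremes as deposited (-0.29 and 0.35), and HSALR replicates 9 and 10 lie lowest after quantile normalization (-0.39 and -0.38).

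Without HSALR replicates 9 and 10, limma called 5 members on the quantile-normalized values, 4 of them higher and 1 lower, against 5.69% of all genes higher and 6.09% lower. Mrps12 (log2 fold 0.29, adjusted p = 0.00768), Mrps34 (0.26, 0.00936), Mrps35 (0.27, 0.0325) and Mrpl44 (0.18, 0.0347) were higher in limma. Mrps24 was lower (-0.27, limma adjusted p = 0.037), and Mrps15 and Mrpl50 were not called. The median log2 fold was 0.03 without these libraries. As deposited and without them, limma called 0 members, against 3.95% of all genes, and 6 had an unadjusted p under 0.05, against 15.6%. The members' median SD in HSALR was 0.22 with both libraries and 0.14 without, after quantile normalization, and that of all genes 0.23 and 0.20. As deposited, the members' median SD in HSALR was 0.23 with both and 0.24 without, and that of all genes 0.29 and 0.28.

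Markers of macrophages and fibroblasts were high in these 2 libraries. The macrophage and monocyte list, 15 of 15 genes on the array, had summed quantile-normalized signals of 5550 to 8930 in wild type, 5530 to 10600 in HSALR replicates 1 to 8, and 22400 and 24400 in replicates 9 and 10. Itgam lay lowest among its genes, with deposited signals of 17.9 to 39.0 in wild type, and did not pass the filter. The fibroblast and fibro-adipogenic list, 10 of 12 genes on the array, summed to 21300 to 40600, 18100 to 35500, and 76000 and 74100. As deposited, limma called 2 of 14 tested macrophage genes higher, Cd68 and Lgals3, and 1 of 10 tested fibroblast genes, Pdgfra. The share of all genes called higher was 3.11%. After quantile normalization limma called 5 of 14 and 1 of 10 higher, against 6.96% of all genes. In the fibroblast list, the deposited median signals of Col1a1, Col1a2 and Pi16 were lower in HSALR, and those of the other genes were higher. Without the 2 libraries Cd68 and Lgals3 were still called as deposited (limma adjusted p = 0.0328 and 0.0294) and Pdgfra was not (0.0729). Of the fat cell markers, 5 of 7 genes were on the array and 3 could be tested. As deposited, Adipoq rose by 1.58 ± 0.41 on the log2 scale (limma adjusted p = 0.0237) and Retn by 0.69 ± 0.16 (limma adjusted p = 0.0146). Without the 2 libraries both were called (limma adjusted p = 0.0449 and 0.0297). The summed quantile-normalized signals of the fat cell list were 5880 to 7320 in wild type, 5110 to 8960 in HSALR replicates 1 to 8, and 6880 and 7010 in replicates 9 and 10. Most of this sum is Fabp4, with deposited signals of 5490 to 6870 in wild type, against 5620 to 7050 for the list. By mean log2 signal after quantile normalization, replicates 9 and 10 lay at 0.38 and 0.80 of the wild-type mean. Wild type ran from -0.37 to 0.22 and HSALR replicates 1 to 8 from -0.13 to 1.42 for this list. Lep and Cidec lay lowest among its genes, with deposited signals of 2.45 to 18.7 and 2.11 to 15.9 in wild type. The muscle fibre markers, 8 of 8 genes, lay at -0.03 and -0.04 of the wild-type mean in replicates 9 and 10, and their sum of 101000 to 102000 lay among the other samples. Between the groups, limma called 0 of the 8 as deposited and 1, Actn3, lower after quantile normalization. Actn3 had deposited signals of 9260 to 11200 in wild type and 7200 to 10100 in HSALR. It was still called on the quantile-normalized values without the 2 libraries (log2 fold -0.23, limma adjusted p = 0.0058). The part of these cells in the family's level was not tested.

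After quantile normalization, the other genes of mitochondrial gene expression had the same 2 libraries lowest. Replicates 9 and 10 lay at -0.36 and -0.30 for the translation factors, -0.34 and -0.36 for the assembly factors of the mitoribosome, -0.29 and -0.29 for the aminoacyl-tRNA synthetases and -0.46 and -0.42 for transcription and maintenance of mitochondrial DNA. As deposited they did not lie lowest in any of these 4 lists, and the lowest of HSALR replicates 1 to 8 lay at -0.26, -0.23, -0.27 and -0.31, against -0.13 and -0.009, -0.11 and -0.06, -0.07 and -0.02, and -0.23 and -0.13 for replicates 9 and 10. The subunits of oxidative phosphorylation lay at -0.20 and -0.22, against -0.03 to 0.04 in wild type, and as deposited at -0.07 and -0.02, against -0.08 to 0.12. Slow fibre markers lay at -2.11 and -1.61, and in wild type they ranged from -2.12 to 1.46.

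**Figure D5:**
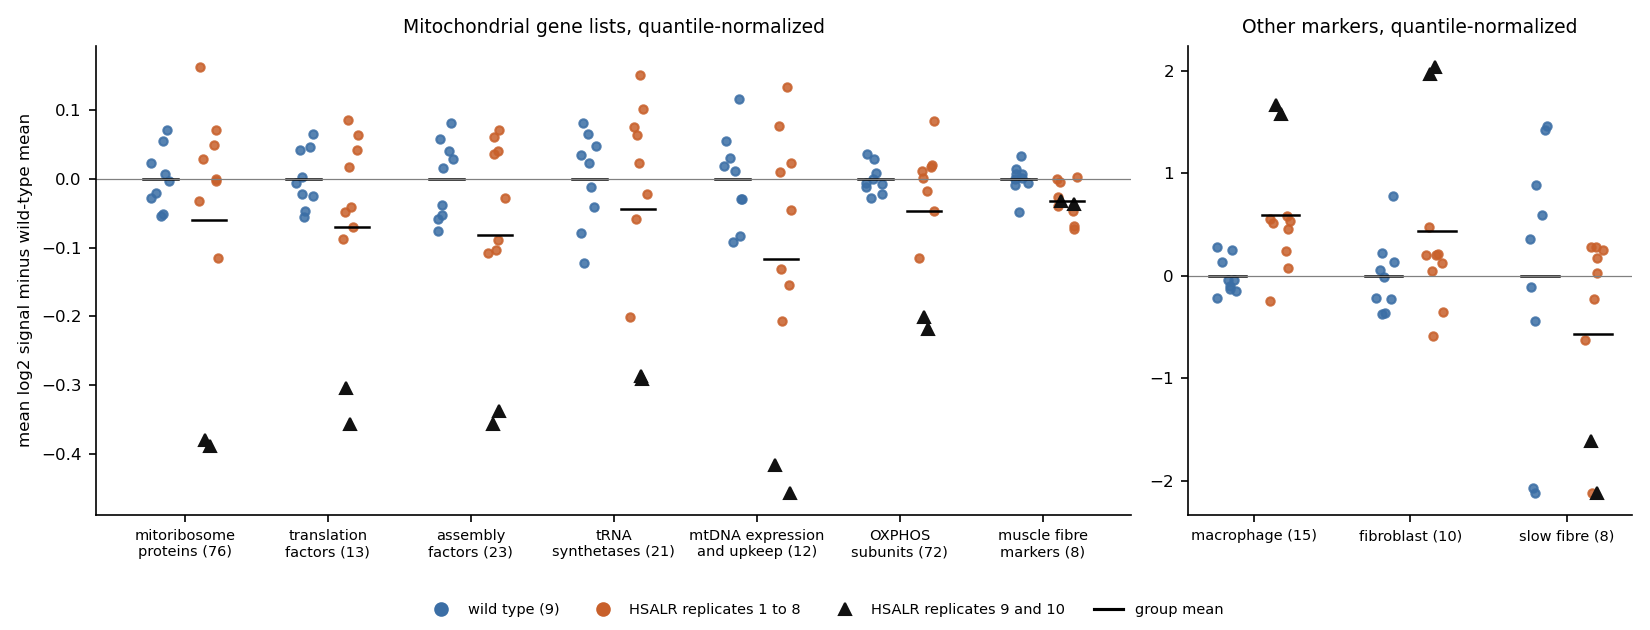
Mean log2(signal + 16) of gene lists in each sample, minus the wild-type mean, after quantile normalization, with the number of genes on the array in brackets and bars at group means; the right panel has a wider y axis. HSALR replicates 9 and 10 (triangles) lie lowest in the 6 mitochondrial lists and highest for macrophage and fibroblast markers, and lie among the other samples for muscle fibre markers.

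Few genes of these pathway lists passed the test between the groups. As deposited, limma called 5.42% of all genes. Of the lists, it called 1 of 23 assembly factors and 0 of 12 translation factors, 0 of 19 synthetases, 0 of 12 genes of transcription and DNA maintenance, 0 of 70 subunits of oxidative phosphorylation, 0 of 10 regulators and 0 of 4 mitoribosome proteins with other symbols. The 1 was Mettl15, which methylates the small ribosomal RNA, with signals of 201, 235 and 268 in wild type and 233, 303 and 414 in HSALR. It rose by 0.39 ± 0.10 on the log2 scale (limma adjusted p = 0.0198), and it was called without HSALR replicates 9 and 10 too (limma adjusted p = 0.0412).

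After quantile normalization limma called lower 1 of 12 translation factors, 1 of 23 assembly factors, 2 of 19 synthetases, 1 of 12 genes of transcription and DNA maintenance, 1 of 70 subunits of oxidative phosphorylation, 1 of 10 regulators and 0 of 4 mitoribosome proteins with other symbols. The share of all genes called lower was 8.51%. Called higher were 1 of 23 assembly factors, again Mettl15, and 0 genes of the other lists, against 6.96% of all genes. The initiation factor gene Mtif2 fell by 0.31 (limma adjusted p = 0.0113) and Mtg1, a GTPase of large-subunit assembly, by 0.34 (limma adjusted p = 0.0164). Cars2 and Gatc, which act in charging mitochondrial tRNAs, fell by 0.31 and 0.30. Tfb2m, a factor that starts mitochondrial transcription, fell by 0.42 (limma adjusted p = 0.00589). Ndufs7, a complex I subunit, fell by 0.18 and Pprc1, a coactivator related to PGC-1, by 0.29. Without HSALR replicates 9 and 10, Mtif2, Mtg1, Cars2, Gatc and Tfb2m were still called (limma adjusted p = 0.0123 to 0.0473), and Ndufs7 and Pprc1 were not (0.0873 and 0.0736). Nrf1 and Gabpa had log2 folds of 0.12 ± 0.12 and 0.06 ± 0.10 as deposited (limma adjusted p = 0.633 and 0.78).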

How the data were processed

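The deposited values are linear signal intensity values of 45101 probe sets on each of 19 arrays, 9 wild type and 10 HSALR, grouped by the labels' titles. The submitters' processing notes name GCOS 1.4. Its algorithm and scaling target were not given in the sources used here. Intensities were used as log2(value + 16), a scale that compresses folds of dim genes, with and without quantile normalization (limma normalizeBetweenArrays, before log2). After leaving out 64 control probe sets, the 22519 at or above the median mean log2 value were fitted with limma 3.58.1 under R 4.3.3 (lmFit, then eBayes, 2-sided, Benjamini-Hochberg adjustment over all probe sets tested, false discovery rate 0.05). Errors are standard errors of the fit. Genes were named from the platform annotation. The members and gene lists were chosen with earlier results of these data known. Members were named if called in either scaling, if among the 4 highest or 4 lowest folds as deposited, if among the 4 brightest or 2 dimmest, or if on a fixed list of 9. Of the other lists, up to 2 called members were named. The fits were tested on simulated data. Alternatives were 2 other pseudocounts, 2 other filters, median centring, a block for the replicate number, array weights, a variance trend, the 3'/5' ratio, the mean of probe sets, and leaving out samples. Averaging replicates 9 and 10, the test between probe sets and the count of lowest samples were added after the data were seen. Promoters were searched in Python 3.11.15 and figures drawn with matplotlib 3.10.9.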

Additional observations from a re-analysis of the deposited data

How the results depend on the processing

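Over the alternatives run, the median log2 fold of the members ran from -0.06 to 0.06 as deposited (both other scalings included) and from -0.13 to 0.03 after quantile normalization. The count of called members varied more. In the main fits the share of all genes called was 5.42% as deposited and 15.5% after quantile normalization. For the other settings the counts are given here without that share, so they cannot be read as changes particular to the family. As deposited (0 of 76), limma called 1 with a pseudocount of 64, 1 with a stricter filter on dim probe sets, 1 with a variance trend, 1 with a covariate for the 3'/5' ratio, 3 with arrays centred on their median, 3 with quantile normalization and 5 with array weights (4 higher and 1 lower). Leaving out 1 sample at a time gave 0 to 2. After quantile normalization (3 of 76), limma called 6 with a pseudocount of 64, 9 with the stricter filter, 7 with a variance trend, 8 with the 3'/5' ratio and 5 without HSALR replicates 9 and 10, and leaving out 1 sample at a time gave 2 to 7, with 7 without HSALR replicate 5 and 5 without HSALR replicate 4. With the mean of each gene's probe sets, dim ones included, it again called 3, but Mrps25 and Mrps7 lower and Mrps34 higher (log2 folds -0.30, -0.20 and 0.20). It called none of Mrps24, Mrps15 and Mrpl50 (adjusted p = 0.0789, 0.324 and 0.15). Of the 3 Mrps25 probe sets, 2 passed the filter, at -0.17 and 0.003. Mrps7 and Mrps34 had 1 probe set each and kept their log2 folds of the main fit (limma adjusted p = 0.0522 and 0.0527 there). With the replicate number as a block, 0 members were called as deposited and 1, Mrps24, after quantile normalization. The deviations of same-numbered samples, over all tested probe sets, correlated at -0.237 to 0.13 as deposited, above 0.1 in 3 of 9 pairs. After quantile normalization this was -0.233 to 0.127, above 0.1 in 2 of 9. In each scaling 1 of 9 correlated best with its own number. Such low correlations show no pairing by number but cannot exclude it, since a shared day or batch need not dominate these deviations. The cause of the changes in the counts was not tested.

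Some log2 folds turned sign, those of Mrpl52 (-0.26 as deposited) and Mrpl42 (-0.09) only with the mean of all probe sets. With quantile normalization Mrpl15 was -0.0732, Mrpl39 -0.0209, Mrpl49 -0.0469, Mrps16 -0.0047, Mrps18a -0.0093 and Mrps27 -0.0518. With median centring Mrpl15 was -0.0375, Mrpl49 -0.0382, Mrps18a -0.0075 and Mrps27 -0.0463. With the 3'/5' ratio Mrpl15 was -0.0326, Mrpl39 -0.0109, Mrpl49 -0.0101, Mrps16 -0.0288 and Mrps27 -0.203. With the mean of all probe sets Mrpl49 was -0.0549, Mrpl42 0.275 and Mrpl52 0.0579. That mean includes dim probe sets, since 1 of 2 Mrpl42 and 3 of 4 Mrpl52 probe sets passed the filter. Mrpl51 was 0.0179 with the replicate block, 0.0368 with array weights, 0.0633 without HSALR replicates 9 and 10 and 0.0268 with them averaged, and Mrps27 was -0.0049 with a pseudocount of 1. Leaving out 1 sample at a time, Mrpl15 ran from -0.0139 to 0.0468, Mrpl49 from -0.0489 to 0.0528, Mrpl51 from -0.0349 to 0.0357, Mrps18a from -0.0133 to 0.0731 and Mrps27 from -0.0419 to 0.0901. The second Mrpl41 probe set was followed only through the settings that start from the deposited values, other than the mean of probe sets. It was called in each of these, at 0.32 to 0.40.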
